A study of Mus musculus with 21 samples.

Results

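Gene expression in the cecum, the fermentation chamber between the small intestine and the colon, was compared between mice given any amount of broccoli powder and mice given none. All 15 broccoli libraries were set against the 6 controls, so the comparison used 21 of the 21 libraries in the series, and every gene of the deposited count table was considered. C57BL/6 mice, a common inbred strain, were 3 weeks old when they started on the Total Western Diet, a rodent diet made to resemble typical American nutrient intake. After 6 weeks on it they were divided, for a further 3 weeks, between that diet without broccoli powder (0%, 6 mice) and the same diet with 0.5%, 1.0% or 2.5% broccoli powder (5 mice each). The Western-type base diet was therefore shared by all groups, controls included. The questions were which genes differed from 0% in the same direction at all 3 doses, and which of these lay beyond the whole range of the 6 controls in most of the 15 broccoli libraries.

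Broccoli is rich in glucosinolates, which are broken down when the plant is crushed and by gut microbes. Some products, the indoles, are ligands of the aryl hydrocarbon receptor (AhR), a transcription factor of the gut epithelium that switches on xenobiotic-metabolising enzymes such as Cyp1a1 and its own repressor Ahrr. Others, the isothiocyanates, act on NRF2, the transcription factor of antioxidant and conjugating enzymes such as Nqo1 and the glutathione transferases.

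Library totals ran from 28514263 to 58594569 counts, and mitochondrially encoded transcripts took 22.1% to 31.8% of them. The 12 listed markers of the large bowel epithelium were all measured, and their summed level was 16919 to 21021 CPM (counts scaled to a common library size with TMM factors, as all levels here) at 0% and 19067 to 23604 CPM on broccoli. Some libraries stood apart. Markers of the small intestine and Paneth cells, which a cecum should hold little of, had a mean log2 CPM over 1 in 6 libraries, namely 0% replicate 5, 0.5% replicates 1 and 4, 1.0% replicate 1 and 2.5% replicates 1 and 2, and at most 0.40 in the other 15. At 2.5%, replicates 3 to 5 stood high in immediate early genes, with summed levels of 3763, 4684 and 3924 CPM against 2248 to 3450 CPM in the other 18. The labels name no cage. They number the mice mostly in runs by diet: the controls carry numbers 8 to 17 and the broccoli mice 18 to 46 in order of dose, except animals 76 and 77 on 0.5% and 80 on 1.0%. All controls are in 1 run, so housing or handling in that order and diet cannot be told apart.

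No gene passed the threshold for the mean of the 3 doses against 0%. By the quasi-likelihood test of edgeR, with p-values adjusted over 15652 genes by Benjamini and Hochberg's method, the share called at an adjusted p under 0.05 was 0% and the lowest adjusted p was 0.234. At an unadjusted p under 0.05 there were 481 higher genes (3.07% of those tested) and 549 lower genes (3.51%). DESeq2 called 7 genes, of which Ahrr, Ces1f, Edn3 and Gnpda2 were higher on broccoli and Arl4d, Colgalt2 and Zfp395 lower. The limma voom test called 0. All levels below are therefore values, and none is a change that passed the main test. For single doses against 0%, the same edgeR fit called 1 gene at 0.5%, 0 at 1.0% and 17 at 2.5%, at an adjusted p under 0.05. The gene at 0.5% was Arl4d, and Ahrr, Edn3, Zfp395, Pax8, Spp1 and Hist1h1e were among the 17. These calls concern 1 dose each, and a call at 1 dose does not by itself make a change shared. Each gene named here also met the shared count defined below, but only Ahrr met the stricter one.

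A gene was counted as shared when its fitted change had the same sign at all 3 doses and at least 8 of the 15 broccoli libraries lay above the highest, or below the lowest, control. By this count 369 genes lay above (2.36% of genes tested) and 376 below (2.40%). Whatever their signs, 169 genes had just 8 libraries above and 304 had 7, and 208 and 297 genes had as many below. A stricter count asked for at least 3 of the 5 libraries at every dose, so that no single dose could carry it. It held 93 genes above all controls (0.594%) and 100 below (0.639%). Of these 193 genes, 189 had the same fitted sign at all 3 doses and 115 had an unadjusted p under 0.05. Over all 15652 genes tested, 3693 were higher and 4110 lower at all 3 doses, and 1030 had such a p. The 193 were picked on the same values, so neither figure is separate evidence for them. The shifts were small: the median log2 change was 0.25 for the 93 higher and -0.28 for the 100 lower genes, with 17 and 20 of them past 0.5 in size. The contrasts of the 3 doses share the 6 controls, so their agreement in sign is not independent evidence. These counts changed little with RLE factors, another scaling, at 365 above and 384 below, and 94 and 106 by the stricter count. They did depend on whether such factors were used. With library totals in place of TMM factors, the median over all genes was -0.04, the first count became 197 above and 483 below, and the stricter count 43 above and 121 below, with 80 of the 193 genes kept.

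**Figure D1:**
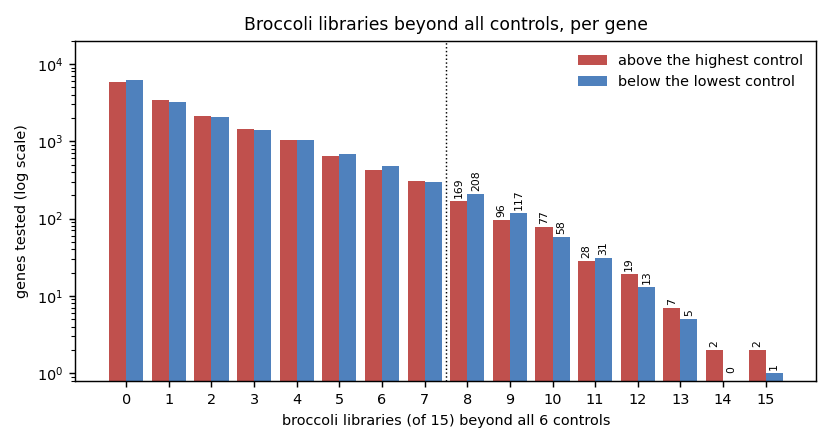
Number of tested genes (log scale) by how many of the 15 broccoli libraries lay above the highest (red) or below the lowest (blue) of the 6 controls. To the right of the dotted line at least 8 libraries were beyond; 30 genes lay above and 19 below in at least 12 libraries, and 2 above and 1 below in all 15.

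Very few genes separated the groups completely. Maoa and Rassf9 lay above every control in 15 of 15 broccoli libraries. Aspdh, an aspartate dehydrogenase domain protein, lay below in 15 of 15, at 0.20 to 0.38 CPM at 0% and 0 to 0.16 CPM on broccoli; it was under 1 CPM and was picked out after its values were seen. Ahrr lay above in 14 of 15.

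Ahrr, the repressor of the AhR (chr13:74211118-74292331, minus strand, GRCm38/mm10), had the lowest of its 6 control values at 1.19 CPM, a median of 2.26 and the highest at 2.69. At 0.5% broccoli the 5 libraries were at 4.28, 3.26, 3.25, 3.43 and 2.34 CPM. At 1.0% they were at 4.75, 2.84, 3.19, 3.19 and 3.60 CPM, and at 2.5% at 5.86, 4.23, 4.08, 4.93 and 3.01 CPM. Only 0.5% replicate 5 fell inside the control range. The log2 change was 0.59 ± 0.20 (SE) at 0.5%, 0.68 ± 0.20 at 1.0% and 1.01 ± 0.20 at 2.5%, and 0.76 ± 0.17 for the mean of the doses, with an adjusted p of 0.251 by edgeR and 0.0115 by DESeq2. The edgeR test among the 3 doses gave an adjusted p of 0.871 for Ahrr, so no difference between doses was shown. The count of 14 was the same under the other scalings tried.

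The 250 bases before the start of the gene are shown for Ahrr, for the classical AhR target Cyp1a1 and for Maoa, one of the 2 genes above all controls in every broccoli library, because the AhR binds a motif with the core GCGTG. Capitals mark that core, searched on both strands; the sequences are RefSeq's, build GRCm38.p6, 5′ to 3′ on the gene's strand, ending at the base before the start.
Ahrr, chr13:74292332-74292581, minus strand: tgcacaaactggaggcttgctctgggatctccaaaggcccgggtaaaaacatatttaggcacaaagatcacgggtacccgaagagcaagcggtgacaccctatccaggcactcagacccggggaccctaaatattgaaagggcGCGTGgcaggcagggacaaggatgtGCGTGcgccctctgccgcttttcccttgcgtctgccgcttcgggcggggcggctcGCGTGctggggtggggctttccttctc
Cyp1a1, chr9:57697363-57697612, plus strand: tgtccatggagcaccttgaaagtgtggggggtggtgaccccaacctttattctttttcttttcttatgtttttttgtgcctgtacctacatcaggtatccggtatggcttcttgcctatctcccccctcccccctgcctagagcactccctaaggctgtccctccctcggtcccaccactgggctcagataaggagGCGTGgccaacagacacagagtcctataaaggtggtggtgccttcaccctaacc
Maoa, chrX:16619448-16619697, plus strand: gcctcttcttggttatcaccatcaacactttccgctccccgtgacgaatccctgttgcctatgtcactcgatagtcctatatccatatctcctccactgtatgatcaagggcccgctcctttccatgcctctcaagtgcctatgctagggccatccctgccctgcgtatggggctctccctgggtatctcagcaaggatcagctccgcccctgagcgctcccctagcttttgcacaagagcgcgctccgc
The Ahrr window held 3 such cores, the first bases of which lay 107, 82 and 27 bases before the start. The Cyp1a1 window held 1, at 54 bases, and the Maoa window 0. Cores of this length are common: 28.2% of all 32851 RefSeq windows held at least 1, as did 41.2% of those of tested genes, 39.7% of those of the 93 genes strictly above all controls and 32.7% of those of the 100 below (68 and 77 genes had an entry). A longer core for NRF2 partners, TGACNNNGC, was in none of the 3 windows shown and in 11.3% of those of tested genes, 16.7% of those of the 93 genes above and 3.96% of those of the 100 below (13 of 78 and 4 of 101 windows). These matches describe letters and no binding was measured.

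The other AhR targets were less regular. Cyp1a1 had a control range of 0.18 to 1.98 CPM with a median of 0.39, the high value being 0% replicate 2. On broccoli it was at 1.43, 0.74, 1.23, 0.63 and 0.87 CPM at 0.5%, at 1.43, 2.21, 0.51, 2.09 and 4.34 CPM at 1.0% and at 6.35, 1.74, 1.80, 4.37 and 0.71 CPM at 2.5%. The groups overlapped, with 5 of 15 libraries above all controls. Its log2 change was 1.57 ± 0.53 for the mean of the doses, with an adjusted p of 0.670 by edgeR. Nqo1, a quinone reductase under both AhR and NRF2, was at 47.3 to 66.1 CPM at 0% and 52.5 to 78.7 CPM on broccoli, with 6 of 15 libraries above all controls, all of them at 1.0% or 2.5%. Cyp1b1, a related cytochrome P450, overlapped almost wholly, with 1 library above. That overlap rested on 0% replicate 5, at 3.74 CPM, as the next control was at 1.01 CPM. Without that control 8 libraries lay above, and the log2 change was 1.18 (adjusted p 0.729 by edgeR) against 0.42 with it. Tiparp, an ADP-ribosyltransferase that restrains the AhR, lay on both sides of the controls, with 7 libraries above and 3 below. Over the list of AhR targets, 8 of 9 tested members had a positive change against 48.9% of all genes. At all 3 doses 6 of the 9 were higher, as were 3693 of all 15652 genes tested. At an unadjusted p under 0.05 by edgeR, 4 of 9 were higher (Ahrr, Cyp1a1, Cyp2s1 and Nqo1), against 3.07% of all genes tested. The median log2 change was 0.23 against -0.003 for all genes. Cyp1a2 and Ugt1a6a, also on the list, were at 0 in all libraries.

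Several enzymes that handle drugs, plant compounds and amines were among the shared genes. Maoa, the mitochondrial monoamine oxidase that breaks down serotonin and noradrenaline (chrX:16619698-16687818, plus strand), had a control range of 310 to 477 CPM with a median of 437. It was at 524, 502, 550, 524 and 624.7 CPM at 0.5%, at 507, 502, 509, 501 and 495 CPM at 1.0% and at 551, 531, 487, 549 and 497 CPM at 2.5%. The lowest broccoli library was thus 487 CPM, and the groups did not overlap. The log2 change was 0.35 ± 0.09, 0.23 ± 0.09 and 0.29 ± 0.09 at the rising doses and 0.29 ± 0.07 for their mean (adjusted p 0.466 by edgeR and 0.0594 by DESeq2). The lowest control was 0% replicate 5, without which the mean change was 0.21. Its relative Maob had a change of -0.07 ± 0.08 with no library beyond the controls in either direction.

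Ces1f, a carboxylesterase that cleaves ester drugs and lipids (chr8:93256236-93279747, minus strand), was at 27.9 to 37.2 CPM at 0%, with a median of 33.4. At 0.5% it was at 42.7, 38.8, 50.7, 41.9 and 35.2 CPM, at 1.0% at 38.6, 41.8, 45.8, 36.4 and 47.0 CPM and at 2.5% at 55.6, 49.8, 41.8, 43.8 and 35.4 CPM. So 4 of 5 libraries at every dose lay above all controls, and 1 at each dose fell within them. The mean change was 0.41 ± 0.09, with an adjusted p of 0.251 by edgeR and 0.0207 by DESeq2. Its relative Ces1g lay above in 11 of 15 libraries with a change of 0.27 ± 0.11. Cyp2d12, a cytochrome P450 expressed near 1 CPM, was at 0.43 to 0.96 CPM at 0% and 0.73 to 2.20 CPM on broccoli, above all controls in 11 of 15 libraries, with a change of 1.00 ± 0.25. Carboxylesterases and Cyp2d genes lie in clusters of near-identical copies, and reads may have been split between them in counting. Cyp2d12 also overlaps a predicted gene on its own strand.

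Cbr1, a carbonyl reductase that detoxifies quinones and aldehydes (chr16:93605853-93610505, plus strand), was at 113 to 180 CPM at 0%, with a median of 165. The broccoli libraries were at 200, 183, 205, 182 and 201 CPM at 0.5%, at 185, 184, 178, 183 and 241 CPM at 1.0% and at 187, 176, 204, 224 and 190 CPM at 2.5%. In 13 of 15 the value lay above all controls, although for most by a small margin, and with library totals as the scaling the number was 8. The mean change was 0.29 ± 0.08, and 0.21 without 0% replicate 5, the lowest control. Its relative Cbr3, a known NRF2 target, was at 13.3 to 23.2 CPM at 0% and 17.1 to 44.8 CPM on broccoli, above in 11 of 15, with a change of 0.48 ± 0.17.

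Of 33 tested genes of xenobiotic metabolism, 25 had a positive change, 8 were higher and 0 lower at an unadjusted p under 0.05, 5 met the shared count and 3 the strict one (Ces1f, Maoa and Cyp2d12). Over all genes tested, 48.9% had a positive change, 3.07% were higher at that p, 2.36% lay above by the shared count and 0.594% by the strict one, and the NRF2 counts that follow have the same background. The other 5 with a low p were Ugt2b34, Cyp2c23, Abcg2, Ces1g and Sult1b1. The median log2 change was 0.12, and 18 of the 33 were higher at all 3 doses, as were 3693 of all 15652 genes tested. Of 29 NRF2 targets 21 had a positive change, with a median of 0.09, 17 were higher at all 3 doses, and 3 met the strict count. At an unadjusted p under 0.05, Cbr3, Nqo1, Abcc1, Gstm3 and Gclm were higher. Gclm, the modifier subunit of the first enzyme of glutathione synthesis, lay above all controls in 11 of 15 libraries with a change of only 0.11 ± 0.05. The cystine transporter Slc7a11 was lower, at -1.22 ± 0.43, with 2 of 15 libraries below all controls. Hmox1, the heme oxygenase that many NRF2 activators induce, had a change of -0.30 ± 0.15, and Gclc and Gstm1 of 0.08 ± 0.07 and 0.14 ± 0.09.

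**Figure D2:**
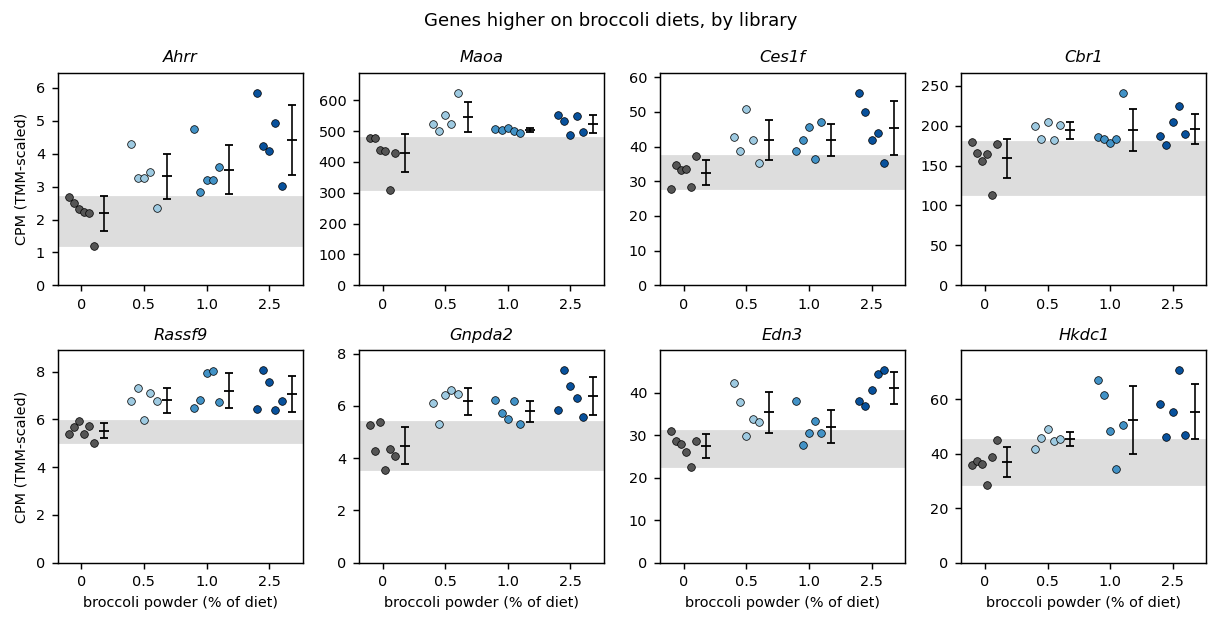
CPM by library for 8 genes named among those higher on broccoli, by diet; each point is 1 mouse, the bar beside it is the mean with SD, and the grey band is the range of the 6 controls. Maoa and Rassf9 have no broccoli point inside the band, while Edn3 has 4, of which 3 are at 1.0%.

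Among the other higher genes, Rassf9, a Ras-association domain protein (chr10:102512222-102549736, plus strand), had a narrow control range of 5.02 to 5.94 CPM with a median of 5.53. It was at 6.76, 7.33, 5.99, 7.12 and 6.75 CPM at 0.5%, at 6.46, 6.82, 7.94, 8.02 and 6.72 CPM at 1.0% and at 6.41, 8.08, 7.57, 6.39 and 6.78 CPM at 2.5%. Every broccoli library was above, 0.5% replicate 3 by the smallest margin, and the mean change was 0.34 ± 0.08 with almost the same value at each dose. Gnpda2, which turns glucosamine 6-phosphate into fructose 6-phosphate, was at 3.55 to 5.37 CPM at 0% and 5.29 to 7.38 CPM on broccoli, above in 13 of 15. Its change was 0.45 ± 0.10 (adjusted p 0.251 by edgeR, 0.0115 by DESeq2). Gnpda2 overlaps Guf1 on the other strand, and whether reads were counted by strand is not stated in the labels. Edn3, the endothelin that guides enteric neural crest cells, was at 22.5 to 30.95 CPM at 0%, and at 42.4, 37.8, 29.9, 33.7 and 33.2 CPM at 0.5%, 38.1, 27.6, 30.6, 33.2 and 30.6 CPM at 1.0% and 38.0, 36.8, 40.6, 44.3 and 45.4 CPM at 2.5%. It was above in 11 of 15 libraries but in only 2 of 5 at 1.0%, and its change was 0.39 ± 0.08 (adjusted p 0.234 by edgeR, 0.0115 by DESeq2). Hkdc1, a hexokinase of epithelial cells, was at 28.4 to 45.1 CPM at 0% and 34.3 to 70.8 CPM on broccoli, above in 12 of 15, with a change of 0.46 ± 0.11; with library totals the number was 7.

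Smaller shifts with many libraries above the controls were seen in 5 further genes. Slc6a6, the taurine transporter, was at 234 to 258 CPM at 0% and 231 to 349 CPM on broccoli, with 13 libraries above, 1 below and a change of 0.24 ± 0.07. Dmac2, a factor for assembly of mitochondrial complex I, had a change of only 0.16 ± 0.05 with 13 libraries above, and Asxl2, a chromatin regulator, of 0.14 ± 0.06 with 13 above. These last 2 counts fell to 7 and 4 with library totals. Rnaseh2b, a subunit of ribonuclease H2, was at 2.69 to 3.63 CPM at 0% and 2.66 to 5.34 CPM on broccoli, with 13 above and 1 below and a change of 0.41 ± 0.12. Fbxw10, an F-box protein, was at 1.20 to 1.77 CPM and 1.20 to 3.61 CPM, with 13 above and a change of 0.49 ± 0.17. Slc6a6, Asxl2 and Rnaseh2b overlap genes on the other strand, and Fbxw10 overlaps Trim16 on its own strand, so some reads may belong to those.

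**Figure D3:**
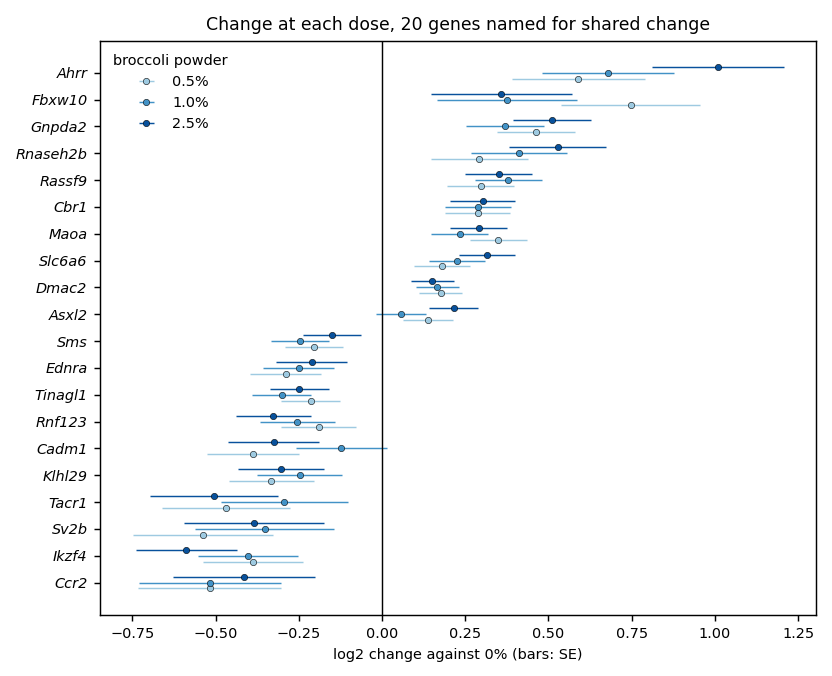
Log2 change against 0% with its SE at 0.5%, 1.0% and 2.5% broccoli, for the 10 genes in each direction with the most libraries beyond all controls at 1 CPM or more. All 3 doses share the 6 controls; Ahrr runs from 0.59 to 1.01, and most other genes lie within 0.6 of 0.

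Some lists of epithelial genes had more positive changes than the 48.9% of all genes, without any member passing the test, and others did not. Of 23 tested colonic genes that move ions, water and short-chain fatty acids, 20 had a positive change, with a median of 0.11. Slc26a3, the chloride-bicarbonate exchanger of the surface epithelium, was at 536 to 969 CPM at 0% and 747 to 1228 CPM on broccoli, above all controls in 4 of 15 libraries, with a change of 0.29 ± 0.10. Atp1b1, a sodium pump subunit, the sodium channel subunit Scnn1a and the chloride channel Cftr had changes of 0.18 ± 0.07, 0.24 ± 0.09 and 0.19 ± 0.08. The water channel Aqp4 was the 1 member lower at an unadjusted p under 0.05, with a change of -1.47 ± 0.48 that rested on 1 control. Of 17 goblet cell and mucus genes 12 had a positive change, and Clca1, a protease of the mucus layer, was at 226 to 426 CPM at 0% and 314 to 581 CPM on broccoli, with a change of 0.44 ± 0.13 and 5 libraries above. Of 23 proliferation genes 20 had a positive change, with a median of 0.08. The replication helicase subunits Mcm5 and Mcm7 led them at 0.38 ± 0.12 and 0.23 ± 0.09, with 7 and 12 libraries above. Of 22 genes of cholesterol synthesis and uptake 20 had a positive change, but 0 had an unadjusted p under 0.05 and 0 met the shared count. Fewer members were higher at every dose. Higher at all 3 doses were 14 of the 23 transport, 6 of the 17 goblet cell, 11 of the 23 proliferation and 10 of the 22 cholesterol genes. Over all 15652 genes tested, 3693 were. Of 13 mitochondrially encoded genes, 11 had a positive mean change but 0 were higher at all 3 doses. Positive changes were found in 8 of 16 genes of epithelial defence (median -0.06), 9 of 21 of fatty acid oxidation and ketogenesis, 10 of 20 of retinoid and carotenoid handling and 4 of 14 of lipogenesis. The bile acid transporter subunit Slc51b lay above in 9 of 15 libraries, with a change of 0.35 ± 0.15, and Ido1, which opens the tryptophan ring, in 7 with 0.54 ± 0.19.

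Lists of the gut wall, and that of macrophages and dendritic cells, leaned the other way in the same libraries. Of 16 tested genes of enteric neurons and glia 1 had a positive change and 14 were lower at all 3 doses, with a median of -0.21. Over all 15652 genes tested, 48.9% had a positive change and 4110 were lower at all 3 doses, which share the controls. Of 11 smooth muscle and pacemaker genes 1 was positive (median -0.10), of 14 fibroblast and collagen genes 2 (median -0.12) and of 14 macrophage and dendritic cell genes 2 (median -0.20). In these lists 7, 8 and 11 members in turn were lower at all 3 doses. The summed levels overlapped: 151 to 258 CPM at 0% and 95.5 to 239 CPM on broccoli for neurons and glia, 2885 to 5367 and 2302 to 5383 CPM for smooth muscle, 647 to 906 and 521 to 949 CPM for fibroblasts, and 119 to 174 and 107 to 156 CPM for macrophages. Of the members of these 4 lists only Synm, a smooth muscle marker, was at 0 in all libraries. Fewer cells of a type in the sample and less RNA per cell cannot be told apart in bulk tissue. With the mean level of the smooth muscle, neuron and fibroblast lists as a covariate, edgeR again called 0 genes, with 776 at an unadjusted p under 0.05, and the changes were 0.73 for Ahrr, 0.29 for Maoa, 0.44 for Ces1f, 0.27 for Cbr1 and 0.36 for Rassf9. The part of these cells in the shifts of the epithelial lists was not tested.

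**Figure D4:**
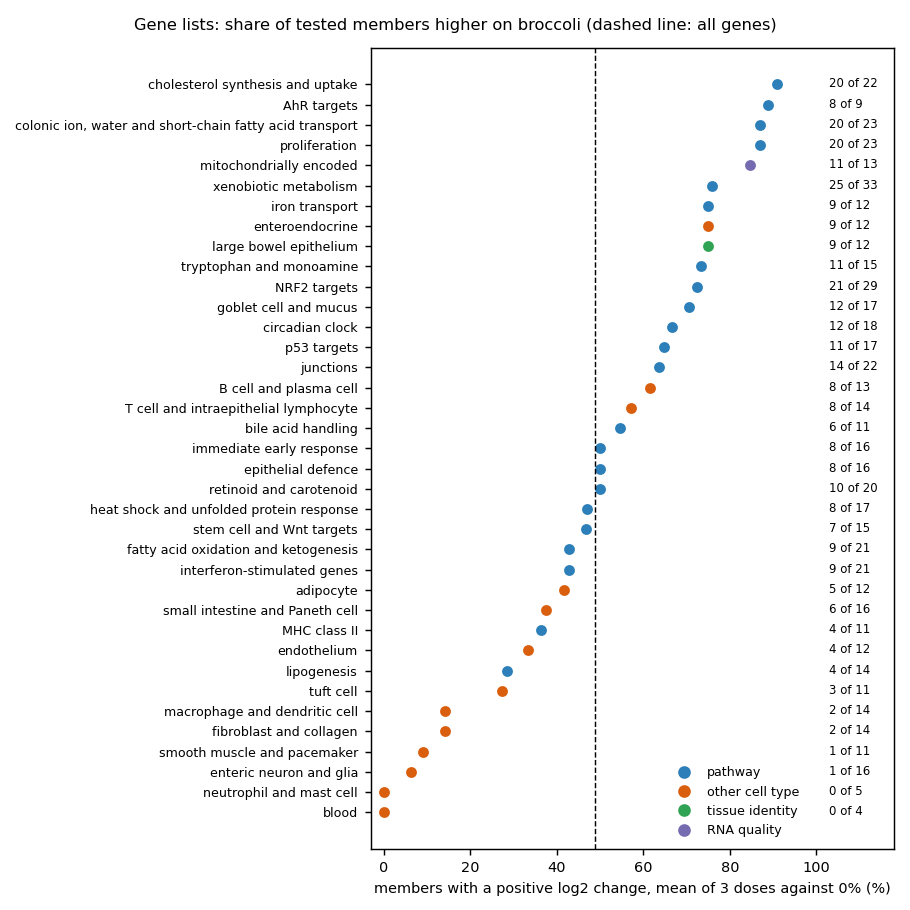
Share of the tested members of each gene list with a positive log2 change for the mean of the 3 doses, with counts at the right; the dashed line is the 48.9% of all genes tested. The AhR, xenobiotic, transport and proliferation lists lie to the right of it, and the neuron, smooth muscle, fibroblast, macrophage, neutrophil and blood lists to the left.

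Zfp395, a zinc finger protein (chr14:65358389-65398930, plus strand), had the lowest unadjusted p of all genes at 2.93e-05 by edgeR. It was at 25.1 to 34.0 CPM at 0%, with a median of 29.4, and at 21.4, 23.9, 23.8, 21.6 and 21.4 CPM at 0.5%, 21.9, 22.1, 25.6, 25.7 and 28.4 CPM at 1.0% and 21.6, 20.8, 22.2, 17.1 and 22.5 CPM at 2.5%. Every library at 0.5% and 2.5% lay below all controls and 2 of 5 did at 1.0%. The change was -0.36 ± 0.07 (adjusted p 0.234 by edgeR, 0.0115 by DESeq2). Arl4d, a small GTPase that recruits actin regulators to the membrane, showed the same gap at 1.0%. Its controls lay between 12.4 and 17.4 CPM, and the broccoli libraries at 6.54, 8.23, 10.5, 10.1 and 9.51 CPM at 0.5%, 12.2, 12.9, 13.5, 16.8 and 13.6 CPM at 1.0% and 10.5, 9.23, 11.02, 10.03 and 9.63 CPM at 2.5%. All libraries at 0.5% and 2.5% were below the controls against 1 of 5 at 1.0%, with changes of -0.72 ± 0.12, -0.11 ± 0.12 and -0.56 ± 0.12 and an adjusted p of 0.149 by edgeR among the 3 doses. Without the 1.0% group it was the 1 gene called, with an adjusted p of 0.0396.

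Colgalt2, which adds galactose to collagen, was at 4.22 to 7.94 CPM at 0% and 2.95 to 5.18 CPM on broccoli, below all controls in 9 of 15 libraries, with a change of -0.63 ± 0.13 (adjusted p 0.251 by edgeR, 0.0177 by DESeq2). Ikzf4, a zinc finger factor of regulatory T cells, was at 4.15 to 6.28 CPM and 2.86 to 4.77 CPM, below in 12 of 15, with -0.46 ± 0.12. Tinagl1, a basement membrane protein, was at 67.8 to 92.6 CPM and 52.6 to 71.3 CPM, below in 12 of 15, with -0.25 ± 0.07. Sms, the spermine synthase, was below in 13 of 15 with -0.20 ± 0.07, and Rnf123, a ubiquitin ligase that overlaps Gmppb and Mst1 on the other strand, in 13 with -0.26 ± 0.09. Eya4, a transcriptional coactivator with phosphatase activity, was below in 10 of 15 with -0.55 ± 0.14. Cntfr, a receptor for a neurotrophic cytokine, was below in 7 of 15 with -0.71 ± 0.17.

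**Figure D5:**
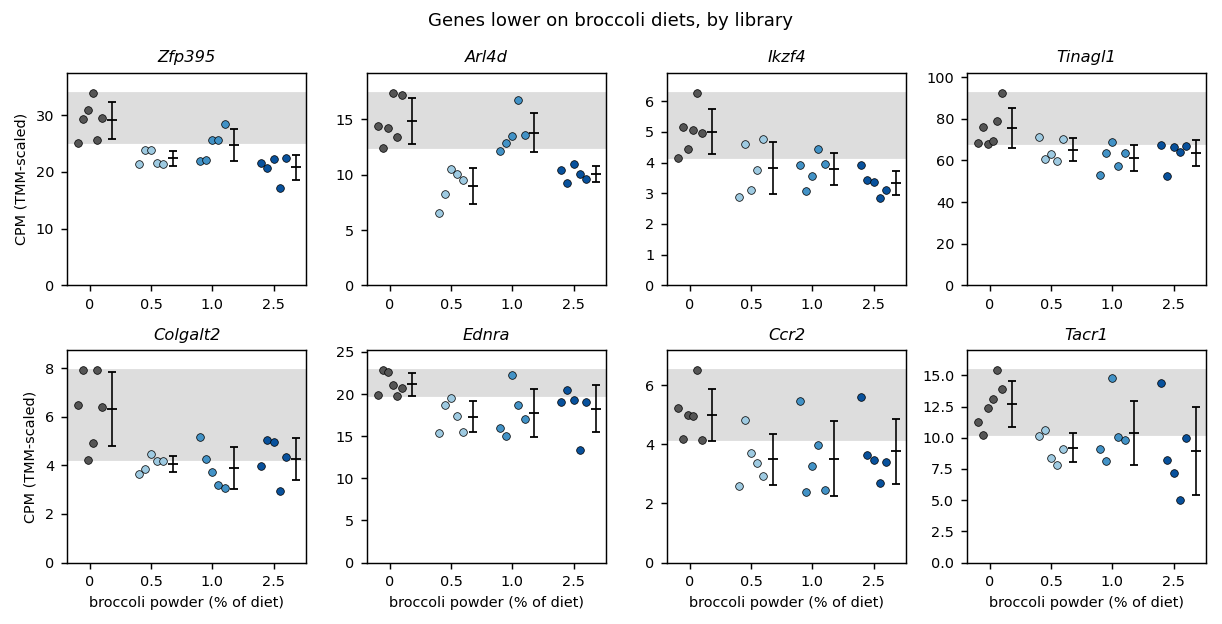
CPM by library for 8 genes named among those lower on broccoli, by diet; each point is 1 mouse, the bar is the mean with SD, and the grey band is the range of the 6 controls. For Zfp395 and Arl4d the points at 0.5% and 2.5% lie under the band and most of those at 1.0% inside it.

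Some of the lower genes were also followed with the gut wall covariate. Ednra, the endothelin A receptor of smooth muscle, was at 19.7 to 22.9 CPM at 0% with a median of 20.9. It was at 15.4, 18.7, 19.5, 17.4 and 15.5 CPM at 0.5%, 15.9, 15.1, 22.2, 18.6 and 17.01 CPM at 1.0% and 19.1, 20.5, 19.3, 13.3 and 19.1 CPM at 2.5%, so 13 of 15 lay below all controls. The change was -0.25 ± 0.08, and -0.20 with the gut wall covariate. Tacr1, the substance P receptor, was at 10.2 to 15.4 CPM and 5.05 to 14.7 CPM, below in 12 of 15, with -0.42 ± 0.15, and -0.31 with the covariate. Sv2b, a synaptic vesicle protein, Cadm1, an adhesion molecule of synapses and epithelia, and Klhl29, a kelch protein, were each below in 12 of 15, with changes of -0.42 ± 0.16, -0.28 ± 0.11 and -0.29 ± 0.10. With the covariate these were -0.32, -0.19 and -0.20. Scn3b, a sodium channel subunit of neurons, was below in 8 of 15 with -0.58 ± 0.15, and -0.55 with the covariate.

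Among leukocyte genes the lists differed in direction. Ccr2, the chemokine receptor of inflammatory monocytes, was at 4.13 to 6.52 CPM at 0% and 2.40 to 5.59 CPM on broccoli, below all controls in 12 of 15 libraries (4 of 5 at each dose), with a change of -0.48 ± 0.17. C1qb, Itgax and Csf1r led the macrophage and dendritic cell list, at -0.27 ± 0.12, -0.38 ± 0.17 and -0.25 ± 0.12. The summed level of 13 neutrophil and mast cell genes was 6.65 to 33.4 CPM at 0% and 3.12 to 9.12 CPM on broccoli. The 33.4 CPM was 0% replicate 5 alone, and the other controls were at 6.65 to 7.14 CPM. A separate list of 7 blood genes, such as the hemoglobin gene Hba-a1, is not a leukocyte list. Its summed level was 6.59 to 8.30 CPM at 0% and 4.05 to 8.57 CPM on broccoli, and its member Alas2 was at 0 in all libraries. These sums lay below all controls in 9 and 10 of 15 libraries. None of the 5 and 4 members tested had a positive change. Of 11 tested MHC class II genes 4 had a positive change. Of 14 T cell genes 8 did, with a median of 0.07, and of 13 B and plasma cell genes 8, with a median of 0.06. The B and plasma cell genes summed to 538 to 809 CPM at 0% and 483 to 1276 CPM on broccoli, the highest being 1.0% replicate 1; Mzb1 of this list was at 0 in all libraries.

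Several of the largest fitted changes came from 1 control. Prss22, a serine protease of epithelia, had a change of -4.20 ± 0.90, but 0% replicate 5 was at 34.0 CPM and no other library above 1.68 CPM. Without that library the change was -0.87. The same library carried the neutrophil gene Ly6g (-3.46, and -0.41 without it), the water channel Aqp4 (-1.47 and -0.05), the alarmin Il33 (-1.11 and -0.04) and the chemokine Cxcl9 (-0.98 and -0.06). It was also among the 6 high in small intestine markers, and the antimicrobial lectin Reg3g turned from -0.20 to 4.67 and Muc2, the main mucin, from 0.13 to 0.70, when it was left out. None of these genes met the shared count.

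The 3 doses were also compared with each other. In the edgeR test among them 0% of genes were called, with 921 at an unadjusted p under 0.05 and a lowest adjusted p of 0.136; DESeq2 called 39 and limma voom 0. In the 6 genes with the lowest p at 1 CPM or more, 2.5% was the dose that stood apart. Pax8, a transcription factor, was at 8.94 to 11.2 CPM at 0.5%, 7.22 to 10.6 CPM at 1.0% and 11.7 to 15.5 CPM at 2.5%, against 6.49 to 9.95 CPM at 0%. Spp1, the secreted phosphoprotein osteopontin, overlaps a predicted gene on its own strand. Spp1 was at 0.37 to 1.23, 1.01 to 1.40 and 0.20 to 0.50 CPM against 0.93 to 1.84 CPM. Pax8 and Spp1 also met the shared count, with 8 libraries beyond the controls, of which 5 were at 2.5% and 1 (Pax8) or 0 (Spp1) at 1.0%. Hist1h1e, a linker histone that overlaps Hist1h2be on its own strand, met it too, with 5 of its 8 at 2.5%. It was at 11.2, 8.17 and 6.97 CPM in 2.5% replicates 3, 4 and 5 against 2.66 and 2.69 CPM in the other two, and its change of 0.80 for the mean of the doses became 0.38 without those 3 libraries. Hephl1, Calcb and Cxcl16 were high in the same libraries, at 7.01, 4.43 and 4.53 CPM, 8.10, 7.76 and 14.2 CPM, and 22.03, 26.3 and 27.3 CPM; these libraries also stood high in immediate early genes. Without those 3 libraries their changes for the mean of the doses were -0.22, -0.02 and -0.08.

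The counts of shared genes moved with the libraries that stood apart. Without the 3 animals numbered above 70, 684 genes met the shared count and 142 the strict one, of which 113 were among the 193. Without 2.5% replicates 3 to 5, 450 genes met the shared count and 78 the strict one, of which 69 were among the 193. Where libraries were left out, the shared count asked for a majority of the broccoli libraries left, and the strict one for a majority at each dose. Here every library left at 2.5% had to lie beyond the controls for the strict count. How much of the fall came from this rule was not tested. Without the 6 libraries whose small intestine markers were high, 1132 genes met the shared count and 238 the strict one, of which 95 were among the 193. The planned cut left out only the libraries over 2.5 in these markers, 0% replicate 5 and 1.0% replicate 1. It gave 537 shared genes above and 487 below, and 231 strictly shared genes, of which 128 were among the 193. With 5 controls instead of 6, as in both settings, the control range is narrower by construction. In these settings, and in all others tried, the changes of Ahrr, Maoa, Rassf9, Ces1f, Gnpda2 and Cbr1 kept a positive sign.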

How the data were processed

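Messenger RNA of the cecum was sequenced in 21 mice. Values are raw counts per gene, deposited by the authors as 1 table; the build is mm10 per the submitters' processing notes. Libraries came from a strand-marking kit per the labels' protocols, while for the aligner, counter, annotation and strand setting: not given in the sources used here. Of 25361 identifiers, 5881 were at 0 throughout and 25268 were found in GENCODE mouse release 21, which gave names and coordinates. Groups were taken from the labels; all columns matched a sample. Animals are numbered in the labels, and each library was taken as 1 mouse. Replicate numbers follow accession order and pair nothing. Libraries of a diet differed by more than sampling noise (lowest chi-square per degree of freedom 17.1, minimum summed count per gene 20).

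The tests used edgeR 4.0.16 under R 4.3.3 (TMM, filterByExpr by diet, robust quasi-likelihood test, two-sided) in 1 fit of all libraries, contrasting 0% with the mean of the 3 doses, equally weighted, and with an F test among the doses. Each dose was also contrasted with 0% in that fit. A gene was called at a Benjamini-Hochberg adjusted p under 0.05 over the 15652 genes tested, adjusted separately for each contrast. Changes are log2 values with SE. Libraries beyond all controls were counted on TMM-scaled CPM, as a description with no p. The script was tested on simulated data. Alternatives used RLE or library-total scaling, other count filters (a summed count of at least 10, or 1 CPM in 5 libraries), covariates, 1 surrogate variable (sva 3.50.0), DESeq2 1.42.0, limma 3.58.1 voom, and left-out libraries, groups and animals numbered above 70. Leaving out the libraries over 2.5 in small intestine markers (mean log2 CPM) was planned. The gut wall covariate, and leaving out the 6 libraries over 1 in small intestine markers or 2.5% replicates 3 to 5, were chosen after seeing the data.

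The comparison, gene lists and named genes were chosen with earlier results of these data known. Named were, at 1 CPM or more, the 10 strictly shared genes in each direction with most libraries beyond the controls, the 8 lowest p in each direction, the 6 lowest p among doses, the lowest p of each list, and 14 anchor genes; predicted genes were not named. List members named beside these were chosen after their values were seen.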

Additional observations from a re-analysis of the deposited data

Results flagged for a closer look

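For the 80 named genes, the highest or lowest library of each diet was compared with the rest of its diet, which made 320 groups of 5 or 6 libraries. In 40 of these 1 library stood apart by Dixon's criterion. Its nominal rate of about 1 group in 20 holds for normally distributed values of genes not chosen on the same data. These were CPM without logs, of genes mostly picked on these data, so the 40 cannot be judged against that rate. Of the 40, 11 were in 0% replicate 5 and 6 in 1.0% replicate 1, both high in small intestine markers.

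In 0% replicate 5 the high values were 208.9 CPM for Aqp4, 7.81 for Cxcl9, 3.74 for Cyp1b1, 32.4 for Il33, 22.6 for Ly6g, 3777 for Muc2, 34.0 for Prss22 and 67.9 for Reg3g, and the low ones 112.8 for Cbr1, 48.8 for Gstm1 and 310.3 for Maoa. The other controls reached 31.5 CPM for Aqp4, 1290 for Muc2 and 0.98 for Reg3g, and were at least 155.7 for Cbr1 and 428.1 for Maoa. Among the other controls, replicate 6 was lowest in Ahrr (1.19 CPM) and Asxl2 (43.1), replicate 2 highest in Cyp1a1 (1.98) and Ciart (7.07), replicate 1 lowest in Hba-a1 (1.68) and Slc51b (5.27), and replicate 3 highest in Cadm1 (20.1).

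At 0.5%, replicate 2 was high in Cxcl16 (11.5 CPM) and low in Fabp2 (129.4), replicate 3 low in Klhl29 (10.6) and replicate 5 low in Slc51b (7.41). At 1.0%, replicate 1 was high in Cxcl9 (3.11 CPM), Hephl1 (1.07), Muc2 (1973), Reg3g (97.0), Siglecf (1.71) and Slc51b (19.5). Replicate 5 of that diet was low in Asxl2 (43.9) and high in Cbr1 (241.5), Cela1 (27.8) and Ly6g (1.57). At 2.5%, replicate 1 was low in Dnajb9 (98.7 CPM) and Fabp2 (186.7) and high in Reg3g (61.7) and Scn3b (4.98). Replicate 2 was high in H2-DMb2 (1.56) and low in Tinagl1 (52.6), replicate 4 low in Ednra (13.3) and replicate 5 high in Gclc (259.1).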

How the results depend on the processing

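The count of genes called for the mean of the doses was 0 under every alternative except without the 1.0% group (1, Arl4d) and DESeq2 (7), and was 0 without any single library. Among the doses it was 1 with small intestine markers as a covariate, 86 without the 6 libraries high in them, 39 by DESeq2, and 0 to 21 without single libraries (21 without 2.5% replicate 1). Shared genes numbered 450 without 2.5% replicates 3 to 5, 1132 without those 6 libraries, and 503 to 1406 without single libraries. Strictly shared genes numbered 78 without 2.5% replicates 3 to 5, 107 to 435 without single libraries, and 420, 584 and 323 without the 0.5%, 1.0% and 2.5% group, where fewer doses had to meet the rule. Leaving out a control raised these counts, and with fewer controls the range to exceed is narrower. Leaving out a broccoli library lowered them. There the majority asked for, overall and at that dose, stayed the same number out of fewer libraries. A fall was thus built into the rule, so these lower counts cannot show whether single broccoli mice mattered. No paired analysis was possible because replicate numbers follow accession order.

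Some named genes changed sign, all with small or library-driven changes. Without the 2.5% group and without its replicates 3 to 5 the log2 changes were -0.075 and -0.021 for Calcb, -0.15 and -0.080 for Cxcl16, -0.44 and -0.22 for Hephl1, and -0.0027 and -0.0066 for Tiparp. Cela1 was at -0.025 with library totals, -0.047 without the 0.5% group and -0.018 with the gut wall covariate. Without single libraries Cela1 ranged from -0.033 to 0.067 and Muc2 from -0.014 to 0.70. Reg3g was at 2.63 without the libraries over 2.5 in small intestine markers, which were 0% replicate 5 and 1.0% replicate 1. It was at 0.48 without the 0.5% group, 0.50 with the small intestine markers as a covariate and 0.53 with a surrogate variable. It was at 0.23 without 2.5% replicates 3 to 5, 0.075 with broccoli as 1 group, and from -2.23 to 4.67 without single libraries. The cause of these sign changes was not tested. Depth limits genes near or under 1 CPM, such as Aspdh and Cyp1a1.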
